A study of Mus musculus with 6 samples.

Results

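Solute carrier (SLC) genes encode membrane proteins that move amino acids, sugars, ions, metals, vitamins, nucleotides and other small molecules across the plasma membrane and organelle membranes. Here they were taken as all probe sets of a mouse Clariom D array whose platform annotation gave exactly 1 gene symbol beginning with Slc and a digit, with the probe set of highest mean kept for each gene and 2 carrier genes left out by the rule. This gave 89 genes of the 7486 with a probe set of their own, each from a single probe set, among the 16383 probe sets analysed. Among the 89 were 2 pseudogene entries, Slc39a1-ps and Slc2a4rg-ps, and the other 87 were carrier genes. By RefSeq placement, 16 lay on chromosome 1, 32 on chromosome 2, 23 on chromosome 3 and 17 on chromosome 4, and carriers of other chromosomes were not analysed here. The other transporters compared below lay on these chromosomes as well. All probe sets below means these 16383, so shares over them are not shares of the whole array.

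RNA came from Melan-a, an immortal pigmented mouse melanocyte line from a female of the C57BL/6 strain, kept in serum with the phorbol ester TPA. Cells of both groups went through the same transfection with a cationic lipid and magnetic particles, carrying siDicer, a small interfering RNA against the microRNA-processing enzyme Dicer, or siScr, the control siRNA, and were lysed 24 hours later. Each group held 3 arrays, and replicate numbers 1, 2 and 3 stood for cell passages 47, 54 and 56 in both groups. All arrays are of 1 cell line, and the Dicer1 transcript was not analysed here, so the groups rest on their labels. Values are log2 signals per probe set, and every difference below is siDicer minus siScr in log2 units, from a limma fit with replicate number as a block. Nothing states that the replicates came from separate thaws, so p-values are for these cultures only. With the block, p-values rest on the spread of the differences over these 3 pairs of cultures, and without it on the spread between cultures. In both fits limma draws each gene's variance toward a value shared by all probe sets. The p-values, standard errors and intervals therefore do not measure a gene's own spread alone.

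The families divide by cargo and by membrane. Zinc, for instance, enters the cytosol through Slc39 (ZIP) carriers and leaves it through Slc30 (ZnT) carriers, and cells balance these against each other. Slc35 carriers bring nucleotide sugars from the cytosol into the Golgi apparatus and endoplasmic reticulum, where glycosyltransferases use them, and Slc25 carriers serve the inner mitochondrial membrane. In pigment cells, transport of protons, metals and amino acids across organelle membranes is known to bear on melanosome content.

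Many carriers are made in few tissues, so signals were set against a gauge of background: 95% of 426 olfactory and vomeronasal receptor genes had a mean at or below 4.22 log2 units. Of the 89 SLC genes 64 lay above this value and 25 below it, and 57.8% of all probe sets lay above it. Apart from this gauge and the marker means below, signals of different probe sets are not set against each other here. Array medians ran from 4.58 to 4.64 and correlations between arrays from 0.994 to 0.997. Of 14 melanocyte markers listed, 5 had a probe set of their own among those analysed, and all 5 lay above the gauge, Tyrp1 and Pax3 among them. Their mean was 9.17 to 9.37 in siDicer and 9.14 to 9.28 in siScr arrays. Of these 5, Lef1 alone passed the threshold, and no measured marker of fibroblasts (0 of 6), immune cells (0 of 8), keratinocytes (0 of 4) or endothelium (0 of 3) did. Above the gauge also lay 4 of 6 fibroblast, 4 of 8 immune, 2 of 4 keratinocyte and 2 of 3 endothelial markers. The gauge alone therefore does not tell cell types apart. Mean levels of the immune markers were 4.16 to 4.26 in siDicer and 4.32 to 4.34 in siScr cells, near the gauge, and those of the other lists overlapped between the groups. The part of Lef1 or of the immune markers in the SLC results was not tested.

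Of the 89 genes, 1 rose, 1 fell and 87 did not pass an adjusted p of 0.05. The gene that fell was Slc39a10, which encodes the zinc importer ZIP10 of the plasma membrane, and the gene that rose was Slc9a8, which encodes the sodium-proton exchanger NHE8 of the Golgi and endosomes. Over all probe sets the same test called 0.995%, with 0.757% higher and 0.238% lower in siDicer. The 2 calls are 2.25% of the 89 genes, too few to read against that share. Without the block no SLC gene passed in limma, against 0.214% of all probe sets. The unadjusted p in limma was 0.0003 with the block and 0.00018 without it for Slc39a10, and 0.00036 in both fits for Slc9a8. Neither gene's own p rose without the block, and both calls were lost in the adjustment over all probe sets. At an unadjusted p under 0.05 the fit without the block held 15 SLC genes, 16.9% of the 89, against 10.2% of all probe sets. The SLC genes and all probe sets were not matched for signal level there. In RNA of whole cultures, a shift in the mix of cells and a shift per cell cannot be told apart.

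Slc39a10 had 7.65, 7.65 and 7.78 in siDicer cells of passages 47, 54 and 56, and 8.06, 8.14 and 8.12 in siScr cells. All siDicer arrays were below all siScr arrays, and the lowest siScr value came from passage 47. The means were 7.69 ± 0.07 and 8.11 ± 0.04 (SD, n = 3 each), a 1.33-fold lower signal in siDicer. The change of -0.41 had a standard error of 0.06 and a 95% interval from -0.55 to -0.27 (limma, adjusted p = 0.0435 with the block and 0.0586 without it). With any 1 pair left out the gene no longer passed, with adjusted p of 0.0686, 0.205 and 0.142 without replicates 1, 2 and 3, and the change lay between -0.45 and -0.37.

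Slc9a8 had 7.957, 7.999 and 8.045 in siDicer cells of the passages in that order, and 7.476, 7.684 and 7.610 in siScr cells. Again the groups did not overlap, this time with siDicer higher, and the widest gap was at passage 47. The means were 8.001 ± 0.044 and 7.590 ± 0.106 (SD, n = 3 each), a 1.33-fold higher signal. The change of 0.41 had a standard error of 0.06 and a 95% interval from 0.27 to 0.55 (limma, adjusted p = 0.0461 with the block and 0.0773 without it). It did not pass after quantile normalization (0.0597), after cyclic loess (0.0561) or with any 1 pair left out (0.088, 0.176 and 0.197).

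**Figure D1:**
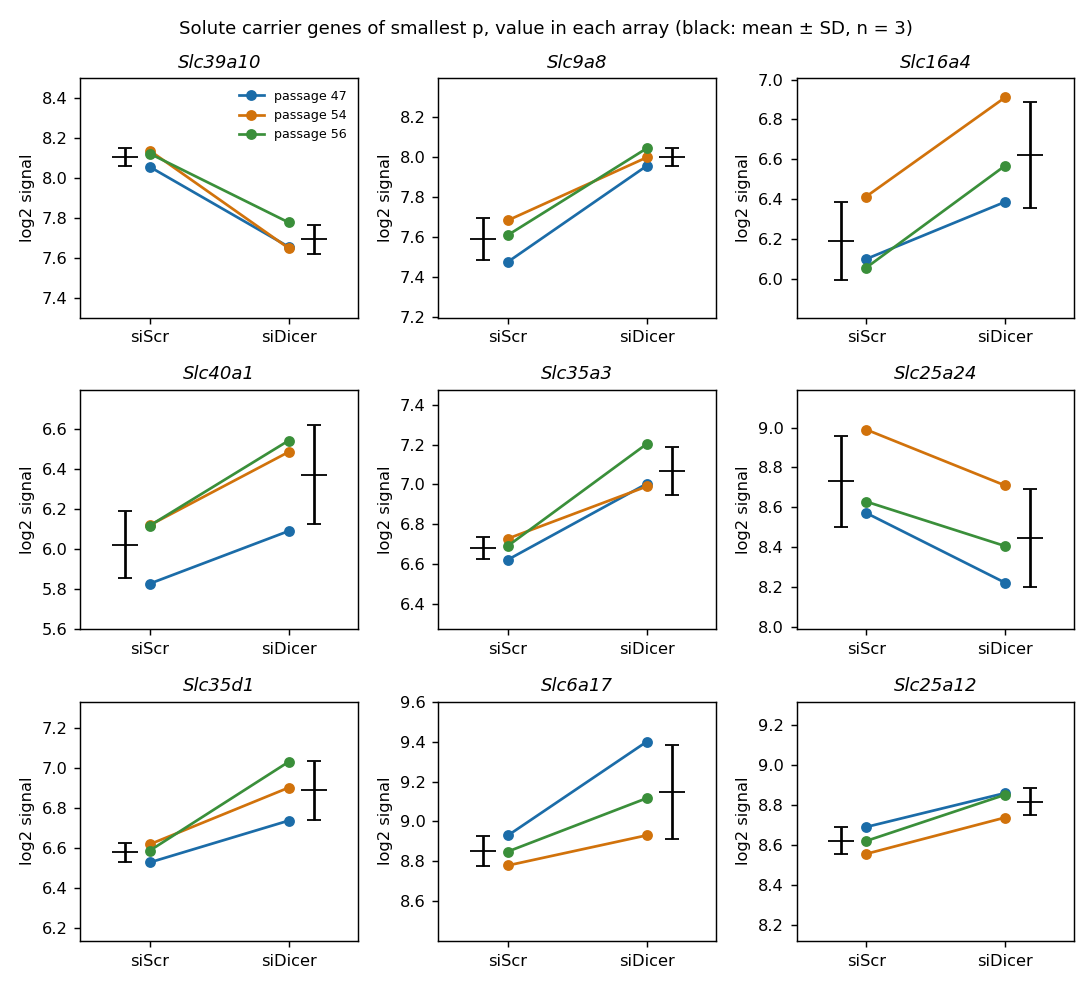
Log2 signal (vertical axis, the same span of log2 units in each panel) in the siScr and siDicer arrays for the solute carrier genes of smallest p; lines join arrays of the same passage, and black bars give the mean ± SD of 3 arrays. Slc39a10 fell and Slc9a8 rose with no overlap of groups, while Slc16a4, Slc40a1 and Slc25a24 differ in the same direction in all 3 pairs with groups that overlap.

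The start-site regions of these genes are given so that the upstream letters can be seen beside the values. Of the 89 genes, 71 had at least 1 start-site entry in the RefSeq promoter table (GRCm38.p6), with 87 entries in all. Windows of 250 bases that end at the annotated start were searched on both strands for a metal response core, spelled TGCACNC or as its variant TGCGCNC, for the E-box spelled CACGTG, for the M-box core of pigment cell promoters spelled CATGTG, for the CCAAT box and for the GC box spelled GGGCGG. Matches of different motifs may overlap. Shown are Slc39a10, Slc9a8 and, for comparison, the zinc exporter gene Slc30a1. Capitals mark every match. Slc39a10 has 2 annotated starts, and the GC-rich one is shown.

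Slc39a10, chr1:46853619-46853868, minus strand: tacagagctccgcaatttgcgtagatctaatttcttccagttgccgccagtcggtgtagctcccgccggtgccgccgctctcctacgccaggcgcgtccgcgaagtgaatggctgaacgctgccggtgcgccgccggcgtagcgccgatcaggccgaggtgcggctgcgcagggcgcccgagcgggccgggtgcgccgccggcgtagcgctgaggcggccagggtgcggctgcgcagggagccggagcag
Slc9a8, chr2:167421460-167421709, plus strand: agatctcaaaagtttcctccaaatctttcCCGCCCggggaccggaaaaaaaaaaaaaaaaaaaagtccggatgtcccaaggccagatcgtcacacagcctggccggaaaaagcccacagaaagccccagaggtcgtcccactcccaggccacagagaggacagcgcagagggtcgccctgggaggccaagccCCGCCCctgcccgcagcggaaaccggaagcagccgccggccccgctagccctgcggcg
Slc30a1, chr1:191906531-191906780, plus strand: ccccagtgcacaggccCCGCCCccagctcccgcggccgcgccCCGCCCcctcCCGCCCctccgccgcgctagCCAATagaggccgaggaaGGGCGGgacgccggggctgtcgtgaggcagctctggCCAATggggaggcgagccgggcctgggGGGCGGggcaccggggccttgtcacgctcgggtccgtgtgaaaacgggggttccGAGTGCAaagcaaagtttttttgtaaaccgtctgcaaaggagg

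The Slc39a10 window is 71.6% G or C and held none of the searched letters. That of Slc9a8 is 62.0% G or C and held 2 GC boxes. The Slc30a1 window held 5 GC boxes, 2 CCAAT matches and 1 metal response core. The metal response core was in 26.4% of member windows and in 21.4% of all 32851 windows, and GC boxes were in 54% and 32.7%. The E-box was in 11.5% of member windows against 6.02% of all, the M-box core in 10.3% against 12.3% and the CCAAT box in 34.5% against 33.8%. A match is a description of letters and says nothing about binding.

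Metal carriers were the largest class, with 15 genes, 12 of them above the gauge. Slc39a10 fell and 14 did not pass, with a class median of 0.01. Of 5 Slc39 genes, which carry zinc and related metals into the cytosol, the other 4 had changes up to 0.12, that of Slc39a1. The pseudogene entry Slc39a1-ps had 0.13, and its signal cannot be told apart from that of its parent gene if the copies share probes. None of the 5 Slc30 genes passed, with changes from -0.07 to 0.09 (adjusted p from 0.523 to 0.944). Slc30a1, the plasma membrane zinc exporter ZnT1, was at 6.92 ± 0.05 against 6.91 ± 0.07 (SD, n = 3 each), with a 95% interval of the difference from -0.13 to 0.15. Slc39a13 and Slc30a7, zinc carriers of the secretory pathway, had changes of 0.09 and 0.05.

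Slc40a1 encodes ferroportin, the iron exporter of the plasma membrane. It had 6.09, 6.49 and 6.54 in siDicer and 5.83, 6.12 and 6.12 in siScr cells, in order of passage. Each siDicer value was above the siScr value of its own passage, but the passage 47 siDicer array lay below the other siScr arrays, so the groups overlap. The change was 0.35 ± 0.06 (SE), with an adjusted p in limma of 0.0628 with the block and 0.428 without it.

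The copper carriers differed in sign. Slc31a1, the high-affinity importer CTR1, had 7.69, 7.59 and 7.71 in siDicer and 7.79, 7.78 and 7.87 in siScr cells, and Slc31a2, the related CTR2 of endosomes and lysosomes, had 8.62, 8.57 and 8.63 against 8.44, 8.48 and 8.49. In both genes the groups did not overlap, with siDicer lower for the former and higher for the latter. The changes were -0.15 and 0.13, and neither passed (limma, adjusted p = 0.262 and 0.312). The magnesium carrier gene Slc41a1 had a change of 0.01 and Slc11a1, a metal carrier of macrophage phagosomes, one of -0.06.

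The nucleotide sugar class held 7 Slc35 genes, all above the gauge. None passed. Its median of 0.16 was the highest among classes of more than 1 gene, against -0.01 over all probe sets, and 5 of 7 had an unadjusted p under 0.05 (4 with a positive and 1 with a negative change), 3 of 7 without the block. That threshold took in 21.3% of all probe sets above the gauge with the block. This class was singled out after its values were seen and gets no test of its own.

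Slc35a3, a Golgi carrier of UDP-N-acetylglucosamine, had 7.004, 6.990 and 7.204 in siDicer and 6.623, 6.728 and 6.692 in siScr cells. Slc35d1, a carrier of UDP-glucuronic acid and UDP-N-acetylgalactosamine in the endoplasmic reticulum, had 6.74, 6.90 and 7.03 against 6.53, 6.62 and 6.59. The groups did not overlap for either gene. Their changes were 0.38 ± 0.07 and 0.31 ± 0.07 (SE), with adjusted p in limma of 0.066 and 0.105. Slc35a1, the CMP-sialic acid carrier, had a change of 0.18 (adjusted p = 0.209) and Slc35f5, a member whose cargo is not well known, 0.16 (adjusted p = 0.258). Slc35c1, the GDP-fucose carrier, had 0.11. In the negative direction Slc35e2 had -0.15 and Slc35c2 -0.04 (adjusted p = 0.284 and 0.778).

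Slc16a4, an MCT-family gene (MCT5), had the largest positive change of the 89. It had 6.39, 6.91 and 6.57 in siDicer and 6.10, 6.41 and 6.06 in siScr cells. The pairs differed by 0.29, 0.50 and 0.51, but the highest siScr value, at passage 54, was above the lowest siDicer value, at passage 47. The change of 0.43 ± 0.07 (SE) gave an adjusted p in limma of 0.051 with the block and 0.369 without it. Slc16a1, the lactate and pyruvate carrier MCT1, averaged 8.67 ± 0.062 in siDicer and 8.48 ± 0.015 in siScr cells (SD, n = 3 each). Its difference of 0.19 did not pass (limma, adjusted p = 0.215). For Slc10a5, of the bile acid carrier family, the mean lay below the gauge.

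Mitochondrial carriers numbered 7, with 5 above the gauge, and none passed. Slc25a24, the calcium-regulated carrier of ATP-magnesium and phosphate, had 8.22, 8.71 and 8.41 in siDicer and 8.57, 8.99 and 8.63 in siScr cells. Every pair was lower in siDicer, by 0.35, 0.28 and 0.22, while the passage 54 arrays were the highest of their group. The change of -0.28 ± 0.06 (SE) had an adjusted p in limma of 0.0952 with the block and 0.551 without it. Slc25a12, the aspartate-glutamate carrier of the malate-aspartate shuttle, had 8.86, 8.74 and 8.85 against 8.69, 8.55 and 8.62, with no overlap and a change of 0.19 (adjusted p = 0.176). Slc25a25, Slc25a44 and Slc25a51 had changes of 0.04, 0.04 and 0.02.

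Among 9 genes of amino acid carrier families, 5 lay above the gauge and 0 passed. A negative change was seen in 8 (4 above the gauge), too few genes to read against 55.6% of all probe sets. The exception was Slc6a17, a carrier of neutral amino acids in synaptic vesicles, with 9.40, 8.93 and 9.12 in siDicer and 8.93, 8.78 and 8.85 in siScr cells. Its lowest siDicer value, at passage 54, was nearly level with the highest siScr value. The change was 0.30 ± 0.07 (SE, adjusted p = 0.15). Slc1a7, a glutamate carrier of the retina, had -0.15 (adjusted p = 0.287), and the level of Slc7a13 lay below the gauge. Slc43a1, a carrier of large neutral amino acids, was 6.99 in both groups.

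Sugar carrier families had 0 of 11 genes past the threshold and none at an unadjusted p under 0.05 in limma, with changes from -0.12 to 0.06 and a median of -0.07. Slc2a1, the main glucose carrier GLUT1, was at 9.43 ± 0.015 against 9.53 ± 0.081 (SD, n = 3 each). Its 95% interval ran from -0.23 to 0.04. Slc2a6, a lysosomal member, had -0.12 and Slc2a10 -0.09.

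Of the 12 carriers of bicarbonate, chloride and protons, Slc9a8 rose and 11 did not pass, and 7 of the 12 lay below the gauge. Its 4 relatives in the Slc9 family, Slc9a2, Slc9a4, Slc9b1 and Slc9b2, were all below the gauge. Slc12a5, a potassium-chloride cotransporter of neurons, had -0.09. In the vitamin and nucleoside class 0 of 7 passed, and Slc23a2, the ascorbate carrier SVCT2, had the smallest p there, with 8.07, 7.87 and 8.04 in siDicer and 7.87, 7.78 and 7.81 in siScr cells (change 0.17, adjusted p = 0.247). Slc23a3 had -0.09, and Slc52a3, a riboflavin carrier, -0.07.

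The remaining classes held no gene past the threshold. Slc33a1, the acetyl-CoA carrier of the endoplasmic reticulum, had 7.36, 7.38 and 7.41 in siDicer against 7.23, 7.27 and 7.23 in siScr cells, with no overlap and a change of 0.14 (limma, adjusted p = 0.3). The phosphate carriers Slc34a3, typical of kidney, and Slc20a1 had -0.15 (adjusted p = 0.277) and -0.02, and the dicarboxylate carrier gene Slc13a3 -0.06. Slc24a3, a potassium-dependent sodium-calcium exchanger, had 0.12 and Slc24a2 lay below the gauge. Among 6 carriers of fatty acids and choline, Slc44a1 had -0.11, Slc27a4 0.08, Slc27a3 -0.07 and Slc44a5 0.05. Slc22a15 had 0.04, Slc17a9, the vesicular nucleotide carrier, 0.01, Slc32a1, the vesicular GABA carrier, lay below the gauge, and the pseudogene entry Slc2a4rg-ps had -0.00.

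**Figure D2:**
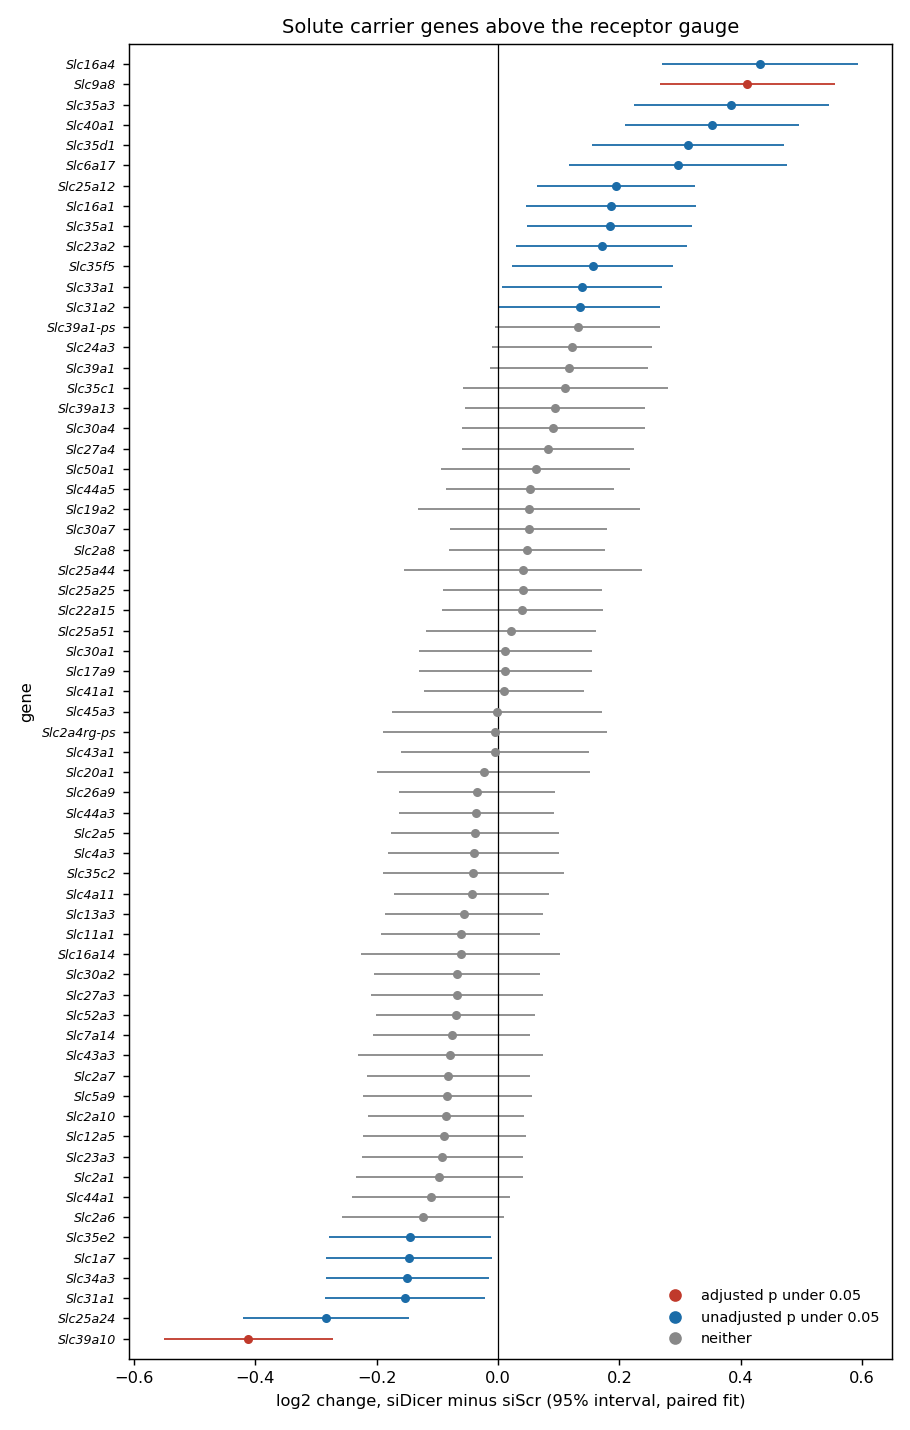
Log2 change, siDicer minus siScr (horizontal axis), with its 95% interval from the paired fit, for the 64 solute carrier genes above the receptor gauge, ordered by change. Slc9a8 and Slc39a10 (red) passed an adjusted p of 0.05, 17 others (blue) had an unadjusted p under 0.05, and the remaining intervals include 0.

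**Figure D3:**
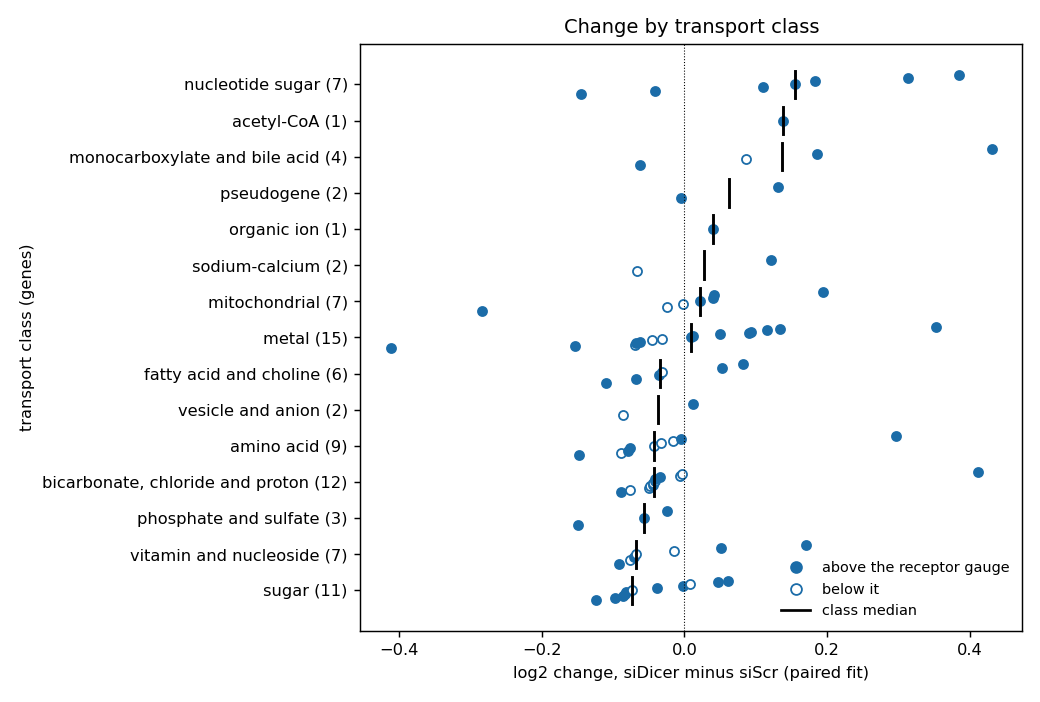
Log2 change, siDicer minus siScr (horizontal axis), of the 89 genes by transport class, with the class size in brackets; filled points lie above the receptor gauge, open points below it, and black bars are class medians. The median was 0.16 for the 7 genes of the nucleotide sugar class and -0.07 for the 11 of the sugar class.

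Differences were small throughout. The 95% interval stayed within a 1.5-fold change either way for 86 of the 87 genes that did not pass, the exception being Slc16a4, and the median standard error over the 89 was 0.06. The 87 include the 25 genes below the gauge, where differences are compressed and a narrow interval bounds little. Standard errors were also drawn toward the value shared by all probe sets. Slc5a12, below the gauge, had pair differences of 0.007, 0.009 and 0.008 and a standard error of 0.053. At an unadjusted p under 0.05 there were 13 genes with a positive and 6 with a negative change, 19 in all or 21.3%, against 15.7% of all probe sets. All 19 lay above the gauge, where they made up 29.7% of 64 genes, against 21.3% of all probe sets above it. Groups did not overlap for 10 genes with siDicer higher and 11 with siDicer lower. These are 11.2% and 12.4% of the 89, against 7.57% and 8.29% of all probe sets. The SLC genes and all probe sets were not matched for signal level here, and 8398 of the 16383 probe sets had no symbol.

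Direction went with signal level. Above the gauge 32 genes had a positive and 32 a negative change, with a median of 0.00. Below it 23 of 25 were negative, with a median of -0.04, against 60.6% negative and a median of -0.02 for all probe sets below the gauge. The 25 dim genes had medians of 3.54, 3.55 and 3.54 in the siDicer arrays and 3.64, 3.52 and 3.63 in the siScr arrays, so the siScr array of passage 54 was level with the siDicer arrays. After quantile normalization 19 of the 25 were negative and after cyclic loess 17. At this level differences are near those of background signal. Over all 89 genes the median was -0.03, against -0.01 over all probe sets.

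**Figure D4:**
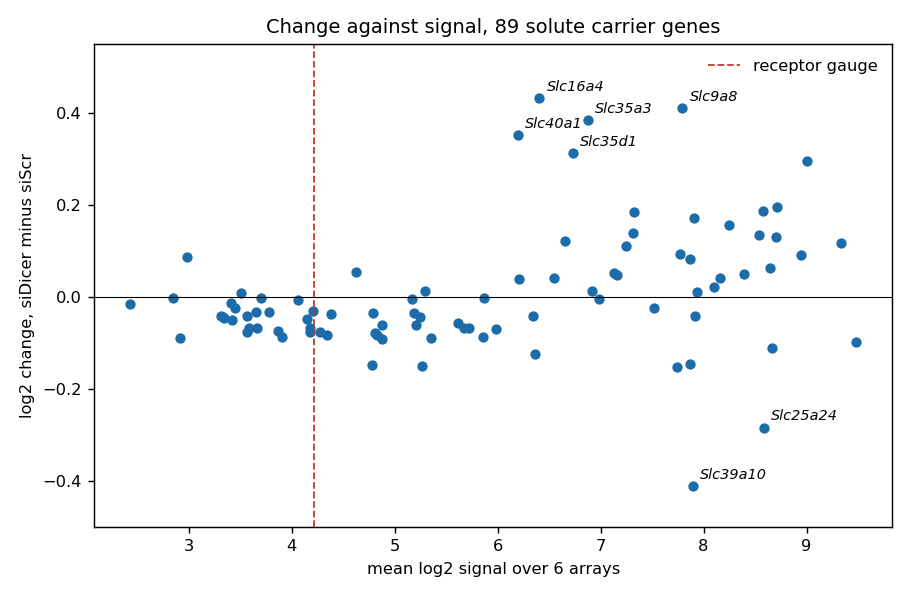
Log2 change, siDicer minus siScr (vertical axis), against the mean log2 signal over 6 arrays (horizontal axis) for the 89 genes; the dashed line is the receptor gauge at 4.22. The points to its left lie mostly just below 0, and the genes of smallest p, which are named, lie well to its right.

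The arrays also differed by passage. In an F-test on passage 1 of the 89 genes passed, against 0.586% of all probe sets, and 11 (12.4%) had an unadjusted p under 0.05, against 14.5%. The gene was Slc30a4, the zinc carrier ZnT4 of intracellular vesicles, with 8.63, 9.41 and 8.92 in siDicer and 8.65, 9.28 and 8.75 in siScr cells of passages 47, 54 and 56. Both arrays of passage 54 were above all others, and the passage means of 8.64, 9.35 and 8.84 spanned 0.71 (limma, adjusted p = 0.0366). The siRNA difference was 0.09 and did not pass. A span of passage means and a difference between group means are unlike measures, and this gene was picked by its passage p. The passage call was lost after quantile normalization (adjusted p = 0.0701) and cyclic loess (0.0752).

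Slc25a24 and Slc44a5, a choline carrier-like gene, came next, with passage means spanning 0.45 and 0.41 and adjusted p of 0.104 and 0.152. Passage 54 was the highest for Slc25a24 and the lowest for Slc44a5. Each passage gave 1 array per siRNA, so passage and day of culture cannot be told apart.

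**Figure D5:**
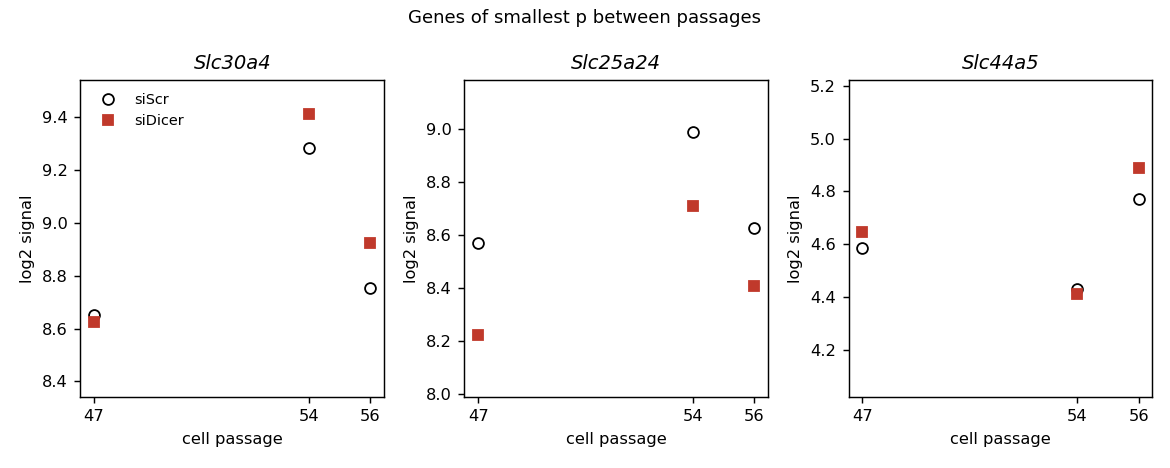
Log2 signal (vertical axis) by cell passage (horizontal axis) for the 3 solute carrier genes with the smallest p between passages; open circles are siScr and filled squares siDicer arrays, 1 of each per passage. For Slc30a4 both arrays of passage 54 stand above those of the other passages.

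For comparison, other transporters and channels were taken by symbol: ABC transporters, aquaporins, Mfsd and Slco genes, ion pumps, ion channels and a few single genes such as Xpr1 and Sv2a. The symbol patterns also took in Trpc4ap, a channel-associated protein, and Pqlc2, which RefSeq now names as the solute carrier Slc66a1. Of 82 measured, 2 rose, 1 fell and 79 did not pass, with a median change of -0.05. Over all probe sets the same test called 0.757% higher and 0.238% lower in siDicer, with a median change of -0.01. So few calls are not read against those shares. Mfsd6 and Clic4 passed with and without the block. Atp1b1, the beta 1 subunit of the sodium pump whose gradient drives many SLC carriers, had 7.54, 8.65 and 7.82 in siDicer and 6.91, 8.16 and 7.20 in siScr cells. Each pair was higher in siDicer, but passage 54 was the highest in both groups and the groups overlap. Its rise by 0.58 ± 0.06 (SE) had an adjusted p in limma of 0.0238 with the block and 0.626 without it. Of these 82 genes 19.5% had an unadjusted p under 0.05, against 21.3% of the SLC genes and 15.7% of all probe sets. These differences were not tested.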

How the data were processed

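RNA of 6 cultures was measured on mouse Clariom D arrays. The authors deposited log2 signals per probe set, for which the submitters' processing notes name Affymetrix Expression Console. The version, background correction and normalization are not given in the sources. Nearly equal array medians would mask any shift common to all genes. Of 16383 probe sets, 7530 had 1 gene symbol, 455 several and 8398 none; a symbol repeated for a probe set counted once. A probe set that named Slc1a2 with a second symbol was left out. Classes of carriers follow the family number and not the cargo known for each gene, so single members may carry another cargo.

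The siDicer and siScr arrays were fitted over all probe sets in limma 3.58.1 (R 4.3.3; lmFit, eBayes), with Benjamini-Hochberg adjustment and a threshold of 0.05. The procedure was tested on simulated data. Replicate number was the block, since labels give same-numbered arrays the same passage; deviations from group means correlated between same-numbered arrays with r of 0.44, 0.41 and 0.24. The members and lists were chosen with earlier results of these data known. The text names members past the threshold, the 3 of smallest p in each class and the 3 of smallest p between passages; other members were named after their values were seen. Alternatives were the fit without the block, quantile and cyclic loess normalization, fewer probe sets, a variance trend, array weights, a threshold of 0.1 and leaving out each pair. The number of arrays limits the precision.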

Additional observations from a re-analysis of the deposited data

How the results depend on the processing

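The fit without the replicate block called 0 SLC genes in limma (15 at an unadjusted p under 0.05, with 1667 probe sets) and 35 probe sets, against 2 and 163 with it. The SLC count was 1 after quantile normalization or cyclic loess, 3 with array weights, 5 when only probe sets above the gauge were tested, 7 for probe sets with 1 symbol, and 6 with a variance trend or at a threshold of 0.1. Slc39a10 passed in 7 of 11 alternatives and Slc9a8 in 5. All probe sets past the threshold numbered 84 (quantile), 93 (cyclic loess), 291 (above the gauge), 281 (1 symbol), 302 (trend) and 378 (threshold of 0.1). Other transporters past it numbered 5 above the gauge, and 7 with 1 symbol or with a trend. The median SLC change moved to -0.0084 after cyclic loess and to 0.0039 above the gauge. SLC genes that differed between passages numbered 0 after quantile normalization or cyclic loess, and 2 (Slc30a4 and Slc25a24) with 1 symbol or a trend. Leaving out a pair gave 0 to 1 SLC genes, 0 to 157 probe sets and 0 to 4 other transporters; the 0 counts in limma were without replicate 2 (2171 probe sets and 13 SLC genes at an unadjusted p under 0.05) and without replicate 3 (1814 and 8). Slc16a4 passed without replicate 1 (adjusted p = 0.0397). The cause of these differences was not tested. Each SLC gene had 1 probe set, so other rows per gene gave no value. Depth is set by 3 pairs, and dim genes have compressed differences.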
